A study of Mus musculus with 3 samples.

Results

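Chemokines are small secreted proteins that steer migrating leukocytes, and the genes described here are 40 chemokine ligand genes and 21 chemokine receptor genes measured in mouse T-helper 1 (Th1) cells. They were chosen by gene symbol, as 61 of the 50600 genes in the deposited tables. The symbols are those that begin with Ccl or Cxcl and a digit, the Ccr and Cxcr receptors, Xcl1, Xcr1, Cx3cl1, Cx3cr1, Ackr2, Ackr3 and Ackr4. Of the 61, 58 are annotated as protein-coding and 3 as pseudogenes. The platelet chemokines Pf4 and Ppbp and the receptors Ackr1 and Ccrl2 do not carry such symbols and are treated as relatives.

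Total RNA was sequenced from primary Th1 cells of C57BL/6NJ mice, and the 3 libraries, labelled as biological replicates, form 1 group. The replicates have separate biosample records and share a donor record, and their age and sex are not stated. The labels point to a protocol for differentiating CD4 T cells and name no further treatment, and the file headers carry a 16 hr tag. There is no second condition, so levels were compared between genes within each library and between the 3 libraries. Nothing in the labels says that the replicates came from separate animals, so the spread between libraries may be partly technical.

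Chemokine receptors are G protein-coupled receptors. A bound ligand activates inhibitory G proteins and leads to cell polarisation and movement, while atypical receptors bind and take up chemokines without G protein signalling. In CD4 T cells the receptor Ccr7 guides entry to lymph nodes, and the set of other receptors differs between helper subsets. Cxcr3 and Cxcr6 are textbook receptors of Th1 cells, Ccr4 and Ccr8 of Th2 cells, Ccr6 of Th17 cells and Cxcr5 of follicular helper cells. Activated T cells themselves secrete several ligands, among them Ccl3, Ccl4, Ccl5 and Xcl1.

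Ligand families are named for the spacing of the first cysteines of the mature protein. The coding stretches below show that spacing in the 6 ligands that were detected, from GENCODE vM21 transcripts on GRCm38, written 5′ to 3′ on the coding strand, with the codons of those cysteines in capitals.
Ccl4: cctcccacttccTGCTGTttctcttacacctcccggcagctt
Ccl3: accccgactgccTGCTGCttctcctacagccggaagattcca
Ccl17: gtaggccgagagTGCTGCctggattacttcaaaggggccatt
Cxcl16: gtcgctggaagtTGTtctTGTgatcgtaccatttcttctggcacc
Cx3cl1: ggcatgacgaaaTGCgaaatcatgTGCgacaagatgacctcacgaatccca
Xcl1: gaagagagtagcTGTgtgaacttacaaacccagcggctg
Ccl4, Ccl3 and Ccl17 carry adjacent cysteine codons, Cxcl16 has an intervening codon, Cx3cl1 has 3 intervening codons, and Xcl1 has a lone cysteine codon at this place. The Ccl4 and Ccl3 genes lie on chromosome 11, and their coding sequences were 68.4% identical. The coding sequence of Ccl17, on chromosome 8, was 54.6% identical to that of Ccl3.

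Of the detected receptors, 4 are shown at the Asp-Arg-Tyr motif, which follows the third transmembrane helix and is tied to G protein coupling. The codons of the motif are in capitals, from the same source and in the same direction.
Ccr7: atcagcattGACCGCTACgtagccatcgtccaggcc
Ccr4: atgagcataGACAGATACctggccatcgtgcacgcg
Cxcr5: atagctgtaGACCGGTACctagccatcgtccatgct
Cxcr6: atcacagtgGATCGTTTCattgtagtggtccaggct
Cxcr6 has a phenylalanine codon where Ccr7, Ccr4 and Cxcr5 have a tyrosine codon.

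The deposited values are counts of read pairs on exons, read by strand. The counts summed to 4764598, 2568928 and 2815439 in replicates 1, 2 and 3. TPM, the counts per kilobase of exon scaled to the same total in each library, was computed from the counts and the deposited gene lengths, and 1 TPM stood for 2.25, 1.28 and 1.59 counts per kilobase. Genes whose exons overlap exons of the other strand held 56.1%, 60.3% and 71.6% of the counts. The mitochondrial gene mt-Nd6, which lies on the strand opposite to mt-Co1, had 6.40, 10.3 and 24.5 times its counts per kilobase. Whether reads were counted on the strand opposite to transcription was not tested; in that case the count of a gene would be a remainder of its reads, and the count of a gene that overlaps another could belong to that other gene. Members are therefore called clear where no exon lies within an opposite-strand gene, and for them TPM was also computed over clear genes alone. That scale is larger, and the library shifts are smaller on it. Over coding genes with a mean of at least 1, the median log2 deviation in TPM was 0.32, 0.11 and -0.41 in replicates 1, 2 and 3, and over clear genes on their own scale it was 0.11, -0.06 and -0.02.

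Of the 61 genes, 42 were clear (27 of 40 ligands and 15 of 21 receptors). Exons of 10 members overlapped opposite-strand exons, and 9 more lay with exons inside the body of an opposite-strand gene only.

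The labelled cell type was checked against its markers. All 6 T cell markers were detected, meaning at least 1 TPM in every library, and their summed level was 591 to 1229 TPM. Among 4 Th1 markers, Il12rb2, which is not clear, had 14.4, 15.5 and 15.1 TPM, Cxcr3 had 0, 0 and 1 counts, and Ifng had 1, 0 and 0. Tbx21, the Th1 master regulator, had 2, 10 and 2 counts, or 0.357, 3.15 and 0.506 TPM, and passed 1 TPM in replicate 2 alone.

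In every library 6 of 21 receptors (28.6%) and 6 of 40 ligands (15%) reached 1 TPM, beside 39.8% of 21764 protein-coding genes. On the clear-gene scale, 4 of 15 clear receptors and 4 of 27 clear ligands did so, beside 37.4% of 15865 clear protein-coding genes. The median level was 0.145 TPM over the receptors and 0 over the ligands, against 0.378 over protein-coding genes. No count was found in any library for 35 of the 61 members (57.4%), against 41.4% of protein-coding genes. Receptors summed to 251 TPM ± 67.4 and ligands to 108 TPM ± 46.9 (SD, n = 3).

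**Figure D1:**
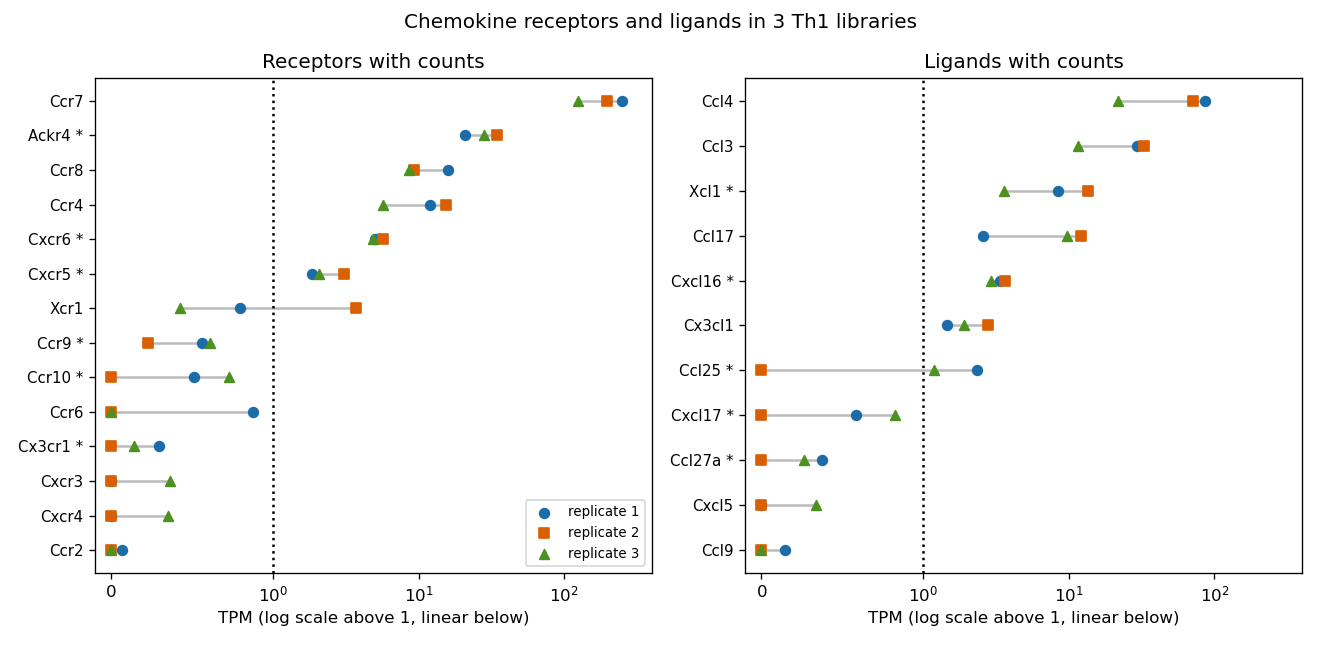
Level in TPM (x axis, linear below 1 and logarithmic above) of receptors (left) and ligands (right) with at least 1 count, with a point for each of the 3 replicates and a grey line over their range; the dotted line marks 1 TPM and an asterisk marks genes with exons inside an opposite-strand gene. Ccr7 stands at 125 to 250.2 TPM, above every other member in each library, and Cxcr3 and Cxcr4 lie at the low end.

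Ccr7, the lymph node homing receptor that binds Ccl19 and Ccl21, was the highest member. It had 1116, 494 and 393 counts, or 250.2, 196 and 125 TPM in replicates 1, 2 and 3, and it ranked 419th of 21764 protein-coding genes. It made up 74.9% ± 5.47 of the summed receptor TPM (SD, n = 3). The gene (ENSMUSG00000037944; chromosome 11, 99144196 to 99155077, minus strand, mm10) is clear, and the nearest gene of the other strand, Igfbp4, lies 89804 bases away. Its intervals did not overlap between any of the 3 libraries in TPM. On the clear scale it had 804, 691 and 696 TPM, and the highest library exceeded the lowest 1.16-fold there, against 2.00-fold in TPM over all genes.

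Ccr8 and Ccr4, the receptors linked to Th2 cells, followed among clear receptors. Ccr8, which binds Ccl1 and in the mouse also Ccl8, had 42, 14 and 16 counts, or 15.9, 9.34 and 8.56 TPM. Ccr4, which binds Ccl17 and Ccl22, had 83, 61 and 28 counts, or 11.9, 15.5 and 5.69 TPM. Their order differed between libraries, with Ccr8 higher in replicates 1 and 3 and Ccr4 in replicate 2, and the log2 ratio of Ccr8 to Ccr4 was 0.09 ± 0.71 (SD, n = 3). Ccr7 stood above both in each library, by a log2 ratio of 4.08 ± 0.27 to Ccr8 and of 4.17 ± 0.44 to Ccr4 (SD, n = 3).

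Of Cxcr3 and Cxcr6, which are linked to Th1 cells, Cxcr6 was detected and Cxcr3 was not. Cxcr3, which binds Cxcl9, Cxcl10 and Cxcl11, had 0, 0 and 1 counts and is clear. Where Cxcr3 had no count, its exact 95% Poisson interval, which covers counting error only, reached 0.945 TPM in replicate 1 and 1.67 TPM in replicate 2. Cxcr6, which binds Cxcl16, had 22, 14 and 15 counts, or 5.05, 5.68 and 4.89 TPM. Its highest library exceeded its lowest 1.16-fold in TPM, 1.51-fold under TMM scaling and 1.57-fold under DESeq2 scaling. All of its exons lie inside the opposite-strand gene Fyco1, which had 65, 28 and 38 counts.

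Among receptors of other helper subsets, Cxcr5 was detected and Ccr6 was not. Ccr6, the receptor of Th17 cells that binds Ccl20, had 4, 0 and 0 counts. Cxcr5, the follicle homing receptor that binds Cxcl13, had 14, 13 and 11 counts, or 1.86, 3.06 and 2.08 TPM, and overlaps opposite-strand exons of Bcl9l by 110 bases. Cxcr4, the receptor of Cxcl12, had 0, 0 and 1 counts and is clear. The gut homing receptor Ccr9 had 13, 3 and 10 counts over 10260 bases of exons, and the skin homing receptor Ccr10 had 2, 0 and 2. Neither is clear: 88.2% of the Ccr9 exon bases lie inside the opposite-strand gene AC165425.1, and all those of Ccr10 inside Cntnap1.

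Ackr4, an atypical receptor that takes up Ccl19, Ccl21 and Ccl25, was the second highest receptor in the tables at 20.8, 34.5 and 28.3 TPM, from 252, 237 and 242 counts. All 5380 bases of its exons lie inside Acad11, an acyl-CoA dehydrogenase gene of the other strand, and 479 of them overlap its exons. Acad11 had 44, 2 and 17 counts, fewer than Ackr4 in each library. Whether the reads given to Ackr4 came from Acad11 transcripts was not tested. The other atypical receptors, Ackr2 and Ackr3, had 0 counts in each library.

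Receptors of myeloid and innate cells were mostly at 0. Ccr1, Ccr3, Cxcr1 and Cxcr2 had no counts, Ccr2 had 1, 0 and 0, and the fractalkine receptor Cx3cr1 had 3, 0 and 1. Xcr1, the dendritic cell receptor for Xcl1, had 8, 21 and 3 counts, or 0.797, 3.70 and 0.424 TPM, and is clear. Its replicate 2 interval, 2.29 to 5.65 TPM, lay above those of replicates 1 (0.344 to 1.57) and 3 (0.0874 to 1.24). For the 6 receptors with no counts, a floor of 3 counts, which covers counting error only, stood for 0.397 to 1.58 TPM.

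Among ligands, the inflammatory chemokines Ccl4 and Ccl3 were the highest. Ccl4 had 128, 60 and 23 counts, or 86.0, 71.3 and 21.9 TPM in replicates 1, 2 and 3. Ccl3 had 51, 32 and 14 counts, or 29.5, 32.7 and 11.5 TPM. Ccl4 exceeded Ccl3 in 3 of 3 libraries, by a log2 ratio of 1.20 ± 0.31 (SD, n = 3), and together they held 74.6% ± 12.1 of the summed ligand TPM. Both are clear, and 13228 bases separate them.

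Both ligands were lowest in replicate 3 on each scale used. On the clear scale Ccl4 had 276, 252 and 122 TPM and Ccl3 had 94.9, 116 and 64.0 TPM. The highest library exceeded the lowest 2.26-fold for Ccl4 and 1.80-fold for Ccl3 on that scale, against 1.16-fold for Ccr7. On that scale the counting intervals of the highest and lowest library did not overlap for Ccl4, while those of Ccl3 did; in TPM over all genes neither pair overlapped.

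Ccl17, a ligand of Ccr4, had a spread unlike that of Ccl4 and Ccl3, with 3, 8 and 8 counts or 2.59, 12.2 and 9.79 TPM. It was lowest in replicate 1, the deepest library, and its clear-scale values were 8.32, 43.1 and 54.5 TPM, though the intervals of these low counts overlapped. Ccl22, the other ligand of Ccr4, had 0 counts in each library. Cx3cl1, the membrane-bound ligand of Cx3cr1, had 13, 14 and 12 counts, or 1.47, 2.79 and 1.92 TPM, and is clear. It too was lowest in replicate 1, with overlapping intervals, and 4 of the 12 detected members were lowest there in TPM.

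**Figure D2:**
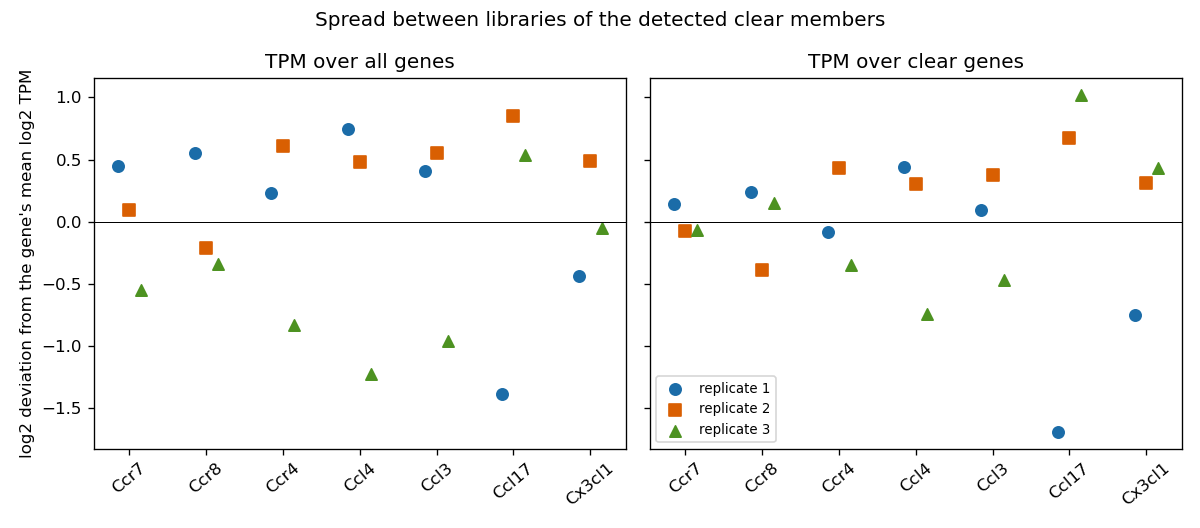
Deviation of each replicate from the gene's mean log2 TPM (y axis, log2 units) for the 7 detected clear members, computed over all genes (left) and over clear genes alone (right). Ccr7 draws together on the clear scale (691 to 804 TPM), Ccl4 and Ccl3 stay lowest in replicate 3, and Ccl17 and Cx3cl1 stay lowest in replicate 1.

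The other detected ligands overlap opposite-strand genes. Xcl1, a ligand secreted by activated T and NK cells, had 10, 9 and 3 counts, or 8.48, 13.5 and 3.61 TPM, and all of its exons lie inside Gm20743, which had 125, 62 and 163 counts. Cxcl16, the membrane-bound ligand of Cxcr6, had 23, 14 and 14 counts, or 3.38, 3.63 and 2.91 TPM. It shares 552 bases with opposite-strand exons of Zmynd15, which had 10, 0 and 5 counts. Ccl25, a ligand of Ccr9, had 39, 0 and 14 counts and shares 204 bases with exons of Elavl1, an RNA-binding protein gene with 559, 346 and 186 counts. It thus reached 1 TPM in replicates 1 and 3 but not in replicate 2.

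**Figure D3:**
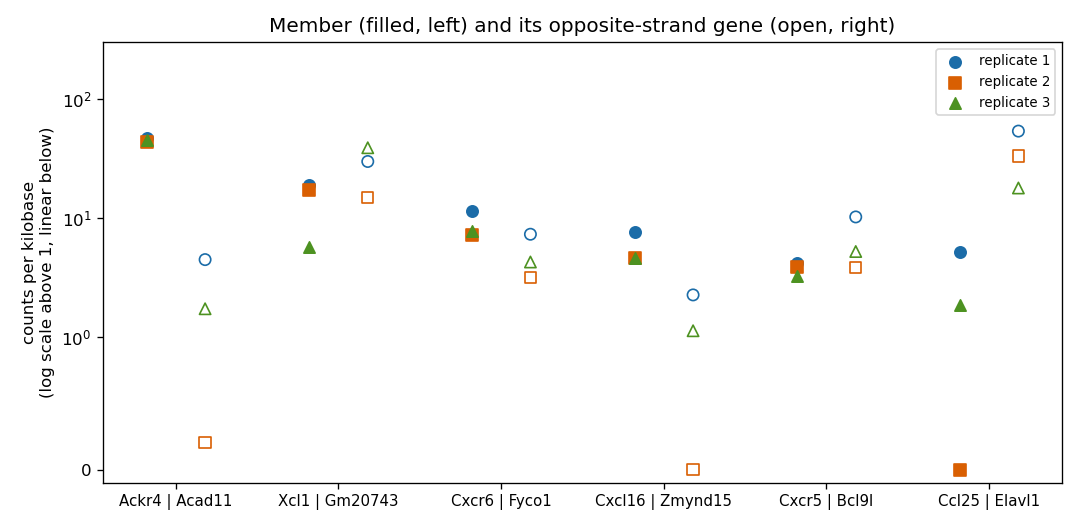
Counts per kilobase (y axis, linear below 1 and logarithmic above) of 6 members (filled symbols) and of the opposite-strand gene that each meets (open symbols), by replicate. Ackr4 lies above Acad11 in every library, whereas Ccl25 lies below Elavl1 in every library.

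The remaining 33 ligands stayed under 1 TPM in every library, and 29 of them had no counts. They include the Cxcr3 ligands Cxcl9, Cxcl10 and Cxcl11, the Cxcr4 ligand Cxcl12, the Cxcr5 ligand Cxcl13, the Ccr6 ligand Ccl20, the Ccr8 ligands Ccl1 and Ccl8, the monocyte attractants Ccl2, Ccl7 and Ccl12, and the neutrophil attractants Cxcl1, Cxcl2 and Cxcl3. Ccl5, a chemokine that effector T cells secrete, also had 0 counts in each library and is clear. For ligands without counts the floor ranged from 0.163 to 8.34 TPM, the highest belonging to genes with short exons, and for 6 of the 29 it was under 1 TPM in every library. Cxcl17 had 1, 0 and 1 counts, Ccl27a 2, 0 and 1, Cxcl5 0, 0 and 1, and Ccl9 1, 0 and 0.

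The zeros carry the strand limit given above, also in clear genes such as Ccl5, and it was not tested. Some of these zeros are uncertain for a further reason: the deposited command line does not ask for reads that map to several places. Of the stretches of 50 bases in their annotated transcripts, 100% for Ccl21b, 100% for Ccl19-ps3, 98.1% for Ccl27b, 71.6% for Ccl21a and 52.0% for Ccl19 also occur in transcripts of another gene. Ccl21 and Ccl19 are the ligands of Ccr7, which stood at 190.3 TPM ± 62.8 (SD, n = 3), and Ccl19, Ccl21a and Ccl21b had 0 counts. The part of such copies in these zeros was not tested.

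Receptors were set beside their ligands, where 6 of 21 receptors and 6 of 40 ligands reached 1 TPM in every library. Both genes were detected for Ccr4 and Ccl17 and for Cxcr6 and Cxcl16. Ccr4 averaged 11.02 TPM ± 4.94 and its ligand Ccl17 8.19 ± 5.00. Cxcr6 averaged 5.21 TPM ± 0.421 and its ligand Cxcl16 3.31 ± 0.364, with both genes overlapped by an opposite-strand gene. In contrast, Cx3cr1 averaged 0.145 TPM ± 0.148 while Cx3cl1 averaged 2.06 ± 0.674. Xcr1 averaged 1.64 TPM ± 1.79, reaching 1 TPM in replicate 2 alone, while Xcl1, which is not clear, averaged 8.53 ± 4.94. Ccr8 averaged 11.3 TPM ± 4.00 while its ligands Ccl1 and Ccl8 were at 0 (SD, n = 3 throughout). These levels come from bulk RNA, in which fewer cells of a type and less RNA per cell cannot be told apart.

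Chemokine genes lie in clusters, and members with counts, some of them with 1 count only, are given by cluster. Over all 61 members, 35 (57.4%) had no count, against 41.4% of protein-coding genes. On chromosome 11, from 83525778 to 83664683, Ccl3 and Ccl4 were detected among 5 members, while Ccl5 and Ccl6 had no counts and Ccl9 had 1. A second group on that chromosome, from 82035571 to 82305690, holds Ccl2, Ccl7, Ccl11, Ccl12, Ccl8 and Ccl1, and 0 of the 6 had a count. On chromosome 5, the 5 members from 90759360 to 90905938 had 1 count in all, in Cxcl5, and the 3 Cxcr3 ligands from 92321347 to 92365485 had none. On chromosome 8, Cx3cl1 and Ccl17 were detected and Ccl22, 20309 bases from Cx3cl1, was at 0. On chromosome 9, from 123678439 to 124147699, 5 of 7 receptors had counts and Cxcr6 was detected in every library. Xcr1 had 32 counts and Ccr9 26 over the 3 libraries, and Ccr1, Ccr3 and Ccr2 had at most 1 each (all positions mm10).

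**Figure D4:**
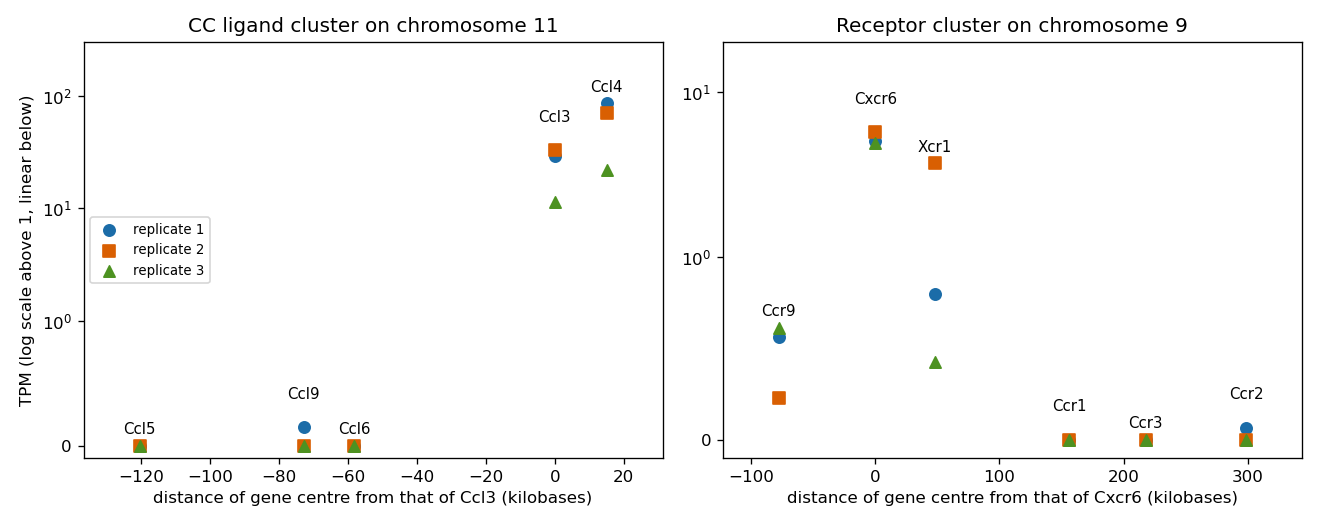
TPM by replicate (y axis, linear below 1 and logarithmic above) against the distance of each gene's centre, in kilobases, from that of Ccl3 in the chromosome 11 ligand cluster (left) and from that of Cxcr6 in the chromosome 9 receptor cluster (right). Ccl3 and Ccl4 stand apart from Ccl5, Ccl6 and Ccl9, and Ccr1, Ccr3 and Ccr2 lie at or near 0.

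Differences between libraries were compared with counting error through exact 95% Poisson intervals. Of the 14 members with a mean of at least 1 TPM, 7 had intervals that did not overlap between the highest and the lowest library, beside 79% of 9932 protein-coding genes at that level. Over clear genes on their own scale the figures were 3 of 8 members, namely Ccr7, Ccl4 and Xcr1, beside 51.3% of 6228 genes. The median SD of log2(TPM + 1) was 0.47 over the 12 detected members and 0.50 over 8668 detected coding genes, and 8 of the 12 were lowest in replicate 3, beside 72.9% of those coding genes.

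Genes that act downstream of chemokine receptors were measured as 3 lists, and 39.8% of protein-coding genes were detected by the same rule. Of 9 G protein subunit genes 7 were detected, led by Gnai2, the inhibitory subunit used by these receptors (63.4 TPM ± 17.1), Gnb1 (60.3 ± 20.96), Gnb2 (53.2 ± 8.54) and Gnai3 (46.2 ± 22.6; SD, n = 3). Of 14 genes of receptor desensitisation, 10 were detected. They were led by the receptor kinases Grk2 (62.8 TPM ± 23.995) and Grk6 (57.6 ± 15.7), the G protein regulator Rgs10 (43.7 ± 12.7) and the arrestin Arrb2 (38.8 ± 18.2). Of 21 genes of polarisation and movement, 20 were detected, led by the actin regulator Coro1a (227 TPM ± 68.4), the small GTPases Rap1b (200 ± 74.2), Rac2 (103 ± 35.4) and Cdc42 (99.7 ± 51.5). Of the genes named here, Coro1a and Gnb2 are not clear. The median was 13.5, 10.6 and 36.3 TPM over the 3 lists.

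Among 11 relatives outside the symbol rule, 3 were detected. The oxysterol receptor Gpr183 had 63.7 TPM ± 19.8, the prostaglandin receptor Ptgdr2, known from Th2 cells, 38.6 ± 2.91, and Ptger4 27.1 ± 5.05 (SD, n = 3), and none of these is clear. Pf4, Ppbp, Ackr1 and Ccrl2 had 0 counts in each library.

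Markers of other cells that make or sense chemokines were also measured. Of 6 macrophage markers, Csf1r and Cd68 were detected and Lyz2, Adgre1 and Cd14 had no counts. Their sum was 113 to 140.2 TPM, nearly all of it Csf1r, which is not clear. Of 6 dendritic cell markers 0 were detected, and Flt3, Itgax and Batf3 were at 0; Cd74 had 33, 1 and 15 counts, and the list summed to 1.66 to 11.02 TPM. Of the other dendritic cell markers, Zbtb46 had 7, 12 and 4 counts and H2-Ab1 had 1, 0 and 2. For 5 B cell markers the sums were 0 to 8.53 TPM, with Ms4a1 and Pax5 at 0. Cd79a had 27, 0 and 17 counts and Cd79b had 1, 0 and 0. The sums were 0 to 0.123 TPM for 4 neutrophil markers, of which S100a8, S100a9 and Ly6g were at 0 and Csf3r had 1, 0 and 0 counts. They were 0.303 to 1.89 TPM for 4 NK markers, of which Ncr1 and Klrk1 were at 0. Eomes, which is not clear, had 5, 10 and 2 counts, and Klrb1c had 1, 0 and 0. The 2 CD8 markers summed to 7.93 to 29.0 TPM, with Cd8b1 at 97, 15 and 36 counts and Cd8a at 0. Mast cell and basophil markers summed to 0 to 2.07 TPM, with Fcer1a and Mcpt8 at 0 and Cpa3 at 4, 0 and 5 counts. Stromal, endothelial and epithelial markers summed to 2.23 to 4.72 TPM, with Col1a1, Col1a2 and Cdh5 at 0. Pecam1, which is clear, was detected with 54, 26 and 19 counts, and Epcam had 4, 1 and 1. The part of these cells in the levels of Ccl3, Ccl4, Ccl17 and Xcr1 was not tested.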

How the data were processed

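Whole-number read counts for each gene were deposited by the authors. Per the file headers, they came from featureCounts (v1.4.6-p4) run on read pairs with both mates mapped, with strand setting 1, using GENCODE vM13 exons and mm10. The headers record no option for multi-mapped reads. For the kit and the version of the aligner, nothing is given in the sources used here. A gene-name table named 50376 of 50600 identifiers, and GENCODE vM21 gave biotypes and sequences.

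The members and gene lists were chosen with earlier results of these data known. Values in every library are given for the 8 highest receptors and 8 highest ligands, receptors linked to helper subsets, and overlapped members reaching 1 TPM in any library; the 4 highest genes are named per pathway list.

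TPM over all genes and over clear genes, strand overlaps, exact 95% Poisson intervals and floors of 3 counts were computed here; intervals and floors cover counting error only. The interval rule was tested on simulated counts with Poisson error alone, which the intervals assume. That cannot show how the rule handles other spread between libraries. Alternatives were other cutoffs and intervals, scaling by edgeR (TMM, version 4.0.16) or DESeq2 (version 1.42.0) in R 4.3.3, and each replicate left out. Scripts ran in Python 3.11.15 with SciPy 1.17.1, pandas 2.3.3 and numpy 2.4.6, and figures used matplotlib 3.10.9. Some members, markers and sequences are not reported here.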

Additional observations from a re-analysis of the deposited data

How the results depend on the processing

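At a cutoff of 5 TPM, 2 ligands were detected in place of 6, and 4 receptors in place of 6. The share of protein-coding genes passing 5 TPM was not computed, so these counts have no background beside them. On the clear-gene scale, which is larger by construction, receptors summed to 824 TPM and ligands to 353 TPM. Members with intervals apart numbered 7, against 3 on the clear scale, an alternative chosen after the data were seen, in which fewer members are counted; they numbered 4 to 6 with a replicate left out, 4 of them without replicate 3. With a replicate left out, detected receptors stayed at 6 and detected ligands ranged from 6 to 7, the receptor sum from 222 to 288 TPM and the ligand sum from 94.6 to 135.5 TPM. Among the mean levels of 14 members, those that moved by over 1.5 times with a replicate left out were Xcr1, which averaged 0.610 TPM without replicate 2 in place of 1.64, and Ccl25, which averaged 0.591 TPM without replicate 1 in place of 1.17. Under TMM or DESeq2 scaling no mean of the 14 moved that far. Both scalings kept the same average library total, so these means could move little. No paired analysis was possible because there is 1 group. Low counts limit the levels: 11 members had 1 to 4 counts in all.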
